A study of Mus musculus with 18 samples.

Results

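The clustered histone genes are the replication-dependent histone genes of the mouse, named Hist1h, Hist2h, Hist3h and Hist4h after the cluster they lie in. All genes with such a symbol were taken. The GENCODE M21 annotation of GRCm38 holds 70 of them, and 68 of these have a row in the deposited count table, out of 47643 genes there. The identifiers of Hist1h2bh and Hist1h2bm matched no row and are not analysed here. Of the 68, 54 are named for the Hist1 cluster on chromosome 13, 10 for Hist2 on chromosome 3, 3 for Hist3 on chromosome 11 and 1 for Hist4 on chromosome 6. Hist1h2al, a processed pseudogene at chr13:51202727-51203065, lies apart from the other Hist1 genes. By product, 6 encode linker histone H1, 20 encode H2A, 17 H2B, 12 H3 and 13 H4, and 3 of the 68 are annotated as pseudogenes.

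RNA was measured in 18 libraries from the mouse prostate cancer line MPC3, in a study titled for RNF185 and its control of COL3A1 in prostate cancer migration. The control group (6 libraries, whose titles carry the name plko) was set against 2 groups of 6 labelled as RNF185 knockdown, named for the short hairpin RNAs shRNF185.1 and shRNF185.3. Rnf185 encodes a ubiquitin ligase of the endoplasmic reticulum. What the control vector holds is not given in the sources used here. In each group, libraries 1 and 2 belong to batch 1, 3 and 4 to batch 2, and 5 and 6 to batch 3. The labels do not say whether the 6 libraries of a group came from separate cultures, so p-values measure only the spread between these libraries. All groups share 1 cell line, and polyadenylated RNA was selected from all of them.

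Histone proteins of these clusters package newly copied DNA, and their genes are transcribed mainly in S phase. Their messenger RNAs typically end in a conserved stem-loop and not in a poly(A) tail: the stem-loop is bound by SLBP, and the U7 small nuclear ribonucleoprotein directs the cut that follows it. Some members can also be read through to a polyadenylation signal further downstream, which gives a polyadenylated transcript, a form known from resting and differentiated cells. The levels below are therefore levels in selected polyadenylated RNA and not totals of histone RNA. In such bulk libraries fewer cells with a transcript and less of it per cell cannot be told apart.

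The stem-loop is the sequence that sets these genes apart from other messenger RNAs. A search for its 16-base pattern in GENCODE M21 transcripts found a match in 46 of the 70 genes, 44 of them in the count table, against 30 of 47156 other genes (0.0636%). Sequence beyond an annotated end was not searched, so a missing match does not show that a gene lacks the stem-loop. Some unmatched members have short annotated transcripts, such as Hist1h2ai (393 bases), Hist1h2bl (381) and Hist1h4k (312). The matches of 8 members named in the results, among them the highest of each class by CPM with a match, follow, 5′ to 3′ as DNA letters on the transcribed strand, with the stem-loop in capitals and its flanks in lower case.
Hist1h2ap: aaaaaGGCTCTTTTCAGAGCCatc
Hist1h1c: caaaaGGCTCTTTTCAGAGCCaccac
Hist1h4i: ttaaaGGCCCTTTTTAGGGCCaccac
Hist3h2a: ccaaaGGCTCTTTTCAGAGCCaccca
Hist2h2aa2: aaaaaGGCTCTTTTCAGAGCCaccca
Hist1h2bg: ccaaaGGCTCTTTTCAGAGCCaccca
Hist3h2ba: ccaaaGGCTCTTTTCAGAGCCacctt
Hist1h3c: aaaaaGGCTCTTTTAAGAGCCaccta
The site of Hist1h2ap lies at chr13:21833026-21833049 on the minus strand (GRCm38) and that of Hist3h2ba at chr11:58949344-58949369 on the plus strand. The form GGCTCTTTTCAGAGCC was found in 26 of the 46 genes: 3 H1, 10 H2A, 8 H2B and 5 H3 genes. None of the 12 H4 genes with a match had it. Of those 12, 7 had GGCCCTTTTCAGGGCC, 2 had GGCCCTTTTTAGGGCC, 2 had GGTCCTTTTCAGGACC and 1 had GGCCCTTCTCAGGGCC, and no gene of another class had any of these 4.

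A second kind of end bears on what poly(A) selection keeps. The polyadenylation signal AATAAA (searched on the transcribed strand only) stood within the last 50 bases of an annotated transcript in 15 of the 68 members and in 39.5% of other genes. The signals of 4 members are shown with AATAAA in capitals.
Hist1h1c: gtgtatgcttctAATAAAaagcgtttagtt
Hist3h2a: aggtatatgcccAATAAAataagagtacgt
Hist2h2be: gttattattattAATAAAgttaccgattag
Hist3h2ba: cataatggtattAATAAAtttggttcaatt
In Hist1h1c the signal lies at chr13:23740330-23740359 on the plus strand, beyond its stem-loop at chr13:23739507-23739532, and the annotated transcript runs 840 bases past the stem-loop. Hist3h2ba also has both, with 169 bases between its stem-loop and the transcript's end. Hist2h2be has a signal and no stem-loop match, and Hist1h2ap has a stem-loop 3 bases before its end and no signal.

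The 18 libraries held 22027395 to 43379662 counts in all genes. Rnf185 was lowered with both hairpins: its level ran from 33.6 to 38.4 CPM (counts scaled to the library's effective size) in control libraries, from 5.21 to 6.80 in those of shRNF185.1 and from 5.19 to 6.72 in those of shRNF185.3. The leukocyte markers Ptprc and Cd3e and the endothelial markers (3 of 3) stayed under 1 CPM in every library. Of 6 epithelial markers, Epcam and Krt5 stayed under 1 CPM, and the prostate marker Pbsn had 0 counts in every library. The 6 summed to 1460 to 1765 CPM in control libraries, 904 to 1175 under shRNF185.1 and 973 to 1041 under shRNF185.3, without overlap with control, and the keratins Krt8 and Krt18 and the cadherin Cdh1 were each lower without overlap. The sum of 5 mesenchymal markers ran from 5199 to 7111, 6060 to 7259 and 7007 to 8907 CPM. Of these markers, Col1a1 and Pdgfrb exceeded every control library under either hairpin, while Vim and Fn1 overlapped control. Col1a2 ran from 339 to 425 CPM in control libraries, from 190 to 327 under shRNF185.1 and from 438 to 635 under shRNF185.3. Its range thus lay below control for the first hairpin and above control for the second. The part of these marker shifts in the histone results was not tested. Members of the clusters took 0.0258% to 0.0397% of a library's counts, or 6955 to 17139 counts in sum.

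Detection was narrow. At least 1 count was found for 66 of the 68 members, 25 had a count in all 18 libraries, and 6 had a mean count of 100 or more. Hist1h2aa and Hist1h2ba, which encode the testis forms of H2A and H2B, had no count in any library, which allows up to 0.00592 CPM over all libraries (3 counts of the total, counting error only). In 40 members the mean count was under 10. The deposited CPM table holds 46 members. The low-count filter of the test kept 32 of 68: 4 H1, 7 H2A, 10 H2B, 6 H3 and 5 H4 genes, and the other 36 have no test in that fit. The median mean count of the 32 was 19.0, against 681 over the 14309 genes tested.

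The counts assigned to a single gene held most of the signal. Hist1h2ap, an H2A gene at chr13:21833026-21833507, took 64.6% of all member counts, and with Hist1h1c and Hist1h2bc it took 86.5%. Per kilobase of annotated exon its mean level over the 18 libraries was 445 CPM. Most of its sequence also occurs in other H2A copies, as described below, so this level is uncertain for 1 gene. The next levels per kilobase were 34.7 CPM for Hist1h1c (linker histone H1.2), 17.3 for Hist1h2bc (an H2B) and 12.6 for Hist1h4i (an H4). The highest H3 level per kilobase was 1.27 CPM in Hist1h3h, followed by 1.01 in Hist1h3c, which had the highest CPM of its class. Those 4 kept this order in the mean of every group. Hist1h2ap overlapped none of the other 3 in any library, while the libraries' values of Hist1h2bc and Hist1h4i overlapped.

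**Figure D1:**
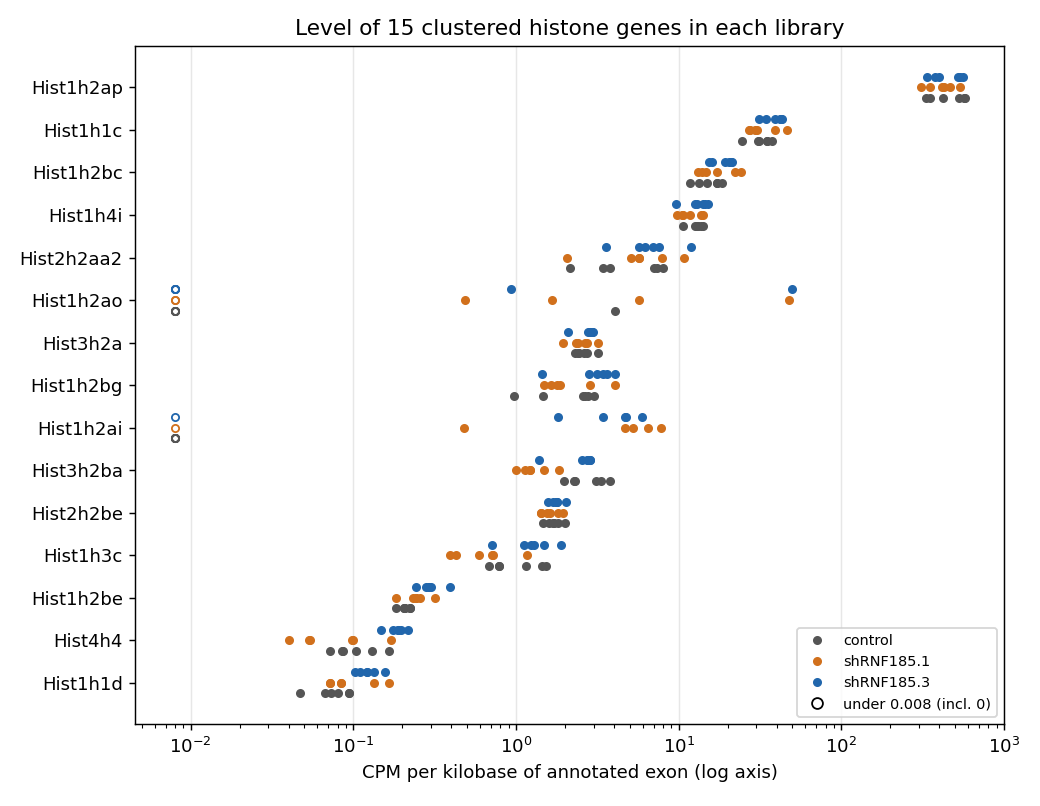
Level of the 15 histone genes named in the text, as CPM per kilobase of annotated exon on a log axis, with 1 point per library (6 per group) and open points for values under the left limit or at 0. Hist1h2ap stands above all others, and Hist1h2ao and Hist1h2ai have libraries at 0 beside libraries with clear counts.

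No clear order of the levels by annotated end was seen, but the comparison is limited. Levels were divided by annotated exon length, which lowers members with long annotated ends, such as Hist1h1d (7425 bases). In 40 of the 68 members the mean count was also under 10. The 22 members with a stem-loop within 100 bases of the transcript's end had a median level of 0.584 CPM per kilobase, with Hist1h2ap highest. In the 22 whose transcript runs more than 100 bases past the stem-loop the median was 0.251, with Hist1h1c highest. The 24 with no stem-loop match in the annotated transcript, which can stop short of it, had a median of 0.419, with Hist1h2bc highest. Hist1h2ap, with no annotated signal near its end, was thus the most abundant member in RNA selected for poly(A).

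**Figure D2:**
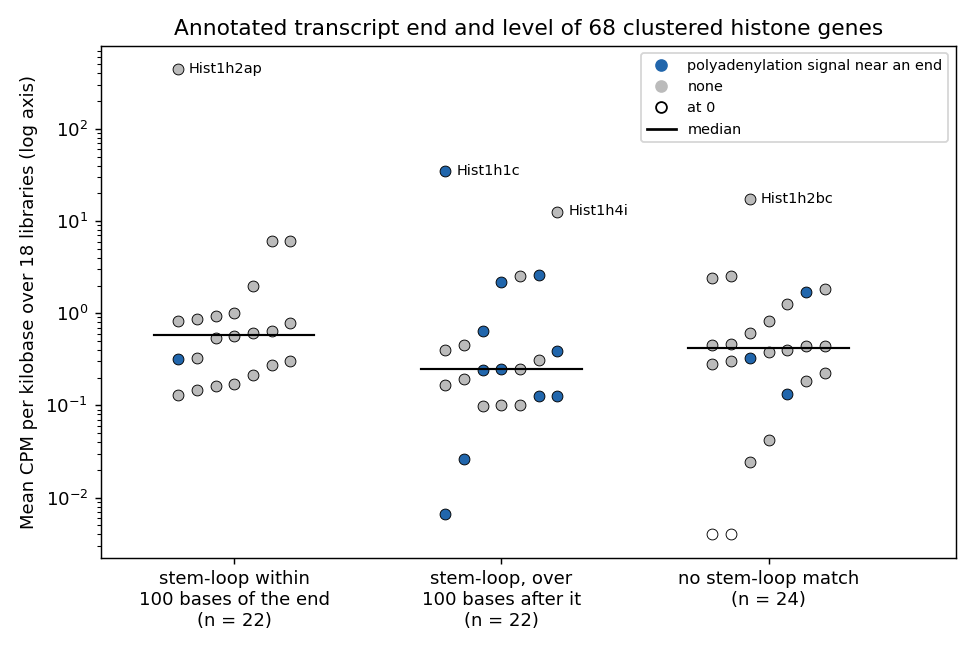
Mean level of the 68 members over 18 libraries (CPM per kilobase, log axis) by annotated transcript end, with 1 point per gene, the median as a line and members with AATAAA near an end in blue. The medians are 0.584, 0.251 and 0.419, and the highest member differs in each class.

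Copies of these genes are alike enough to limit what a count for 1 of them means. Reads were sequenced to 75 bases, and 62 of the 68 members share at least 1 window of 75 bases with another gene; in 29 of them, 15 tested, more than 50% of all windows are shared. Hist1h2ap shares 92.6% of its windows, of which 378 of 408 occur also in Hist1h2ao. Hist1h2ai shares 89.3%, and all windows of Hist2h2aa2 occur in another gene, Hist2h2aa1 above all. Hist1h2bc (27.1%), Hist1h4i (22.4%), Hist3h2ba (13.9%), Hist1h1c (6.66%) and Hist2h2be (none) share fewer. How the authors' counting divided shared reads is not given in the sources used here beyond the tool names, and levels of genes with most windows shared are uncertain.

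H2A and H2B genes often stand head to head with a shared promoter region. There are 13 such pairs with both genes in the count table, and in 6 of them the levels per kilobase differed 5-fold or more. Hist1h2bc (17.3 CPM per kilobase) and Hist1h2ac (0.0997) start 251 bases apart and differed 173-fold. Hist2h2be (1.70) and Hist2h2ac (0.304) differed 5.59-fold over a gap of 239 bases. The largest ratio, 3338-fold between Hist1h2ap and Hist1h2br, rests on a gene with 92.6% of windows shared. The ratios of Hist1h2ao to Hist1h2bq (18.9-fold) and of Hist1h2bk to Hist1h2ah (5.17-fold) also rest on genes sharing most windows (72.6% to 96.1%). Hist3h2a stood 108-fold above Hist3h2bb-ps, which is a processed pseudogene. Hist1h2ba and Hist1h2aa, also among the 13, had no count and give no ratio.

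Promoters of the classes also differed in short motifs. RefSeq (GRCm38.p6) promoter windows of 300 bases were matched for 62 members, and motifs were sought on both strands. CCAAT, the letters bound by NF-Y, was in 85.5% of members and 41.1% of all 27025 promoters. It was in every H1, H2A, H2B and H3 promoter matched and in 3 of 12 H4 promoters. TATAAA was in 56.5% of members against 15.7% of all, and ATTTGCAT, the octamer bound by OCT factors, in 22.6% against 1.97%. The octamer was found in 7 of 18 H2A and 7 of 16 H2B promoters and in no H1, H3 or H4 promoter. These are letter matches in a fixed window.

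With shRNF185.1, few histone genes were called. Of the 32 tested members, 2 were called at an adjusted p under 0.05 (edgeR quasi-likelihood test, Benjamini-Hochberg over all 14309 genes), 1 higher and 1 lower, which is 6.25% of them. The one called higher, Hist1h2ai, passed the low-count filter only through the hairpin groups, so its call is no support. Of all genes tested, 28.9% were called in that comparison, 14.6% higher and 14.3% lower. The members' median mean count was 19.0 against 681 for all genes tested, so a change is harder to call in members. The shares, here and below, are therefore not like for like, and a gene not called is not shown to be unchanged. The members' median log2 fold change was -0.10, and the median of all genes was -0.02. At an unadjusted p under 0.05 the count of members was 4. Without shRNF185.1 library 4 or without batch 2, 4 members were called.

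The member that fell with shRNF185.1 was Hist3h2ba, an H2B gene of the Hist3 cluster at chr11:58948920-58949533 whose ends are shown above. Control levels were 1.22 CPM at the lowest, 1.65 at the median and 2.31 at the highest, against 0.613, 0.747 and 1.12 with shRNF185.1. All 6 libraries of that hairpin were below the lowest control. The log2 fold change was -1.08 (SE 0.20, adjusted p = 0.00051 by edgeR), and within batches 1, 2 and 3 the log2 ratio of means was -0.90, -1.60 and -0.69. The call held in all 28 alternative settings run. With shRNF185.3 the gene ran from 0.850 to 1.74 CPM with a median of 1.69, and overlapped the control group. There the log2 fold change was -0.14 (SE 0.19, adjusted p = 0.62 by edgeR). Counts behind these levels were 15 to 88 per library.

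With shRNF185.3, 4 of the 32 members were called, all higher (12.5%). In that comparison 27.3% of all genes tested were called, 14.2% higher and 13.1% lower. The members' median log2 fold change was 0.31 with 27 of 32 above 0, against a median of -0.02 over all genes, with 6660 of 14309 above 0. The 32 include Hist1h2ai, Hist1h2ao, Hist1h2br, Hist4h4 and Hist1h4n, with 10 counts or more in 0, 1, 1, 2 and 2 control libraries. These passed the low-count filter mainly through groups where they are high, so their direction is no support. Hist2h3c2 and Hist1h3g also lie near the filter, with 10 counts or more in 3 control, 1 shRNF185.1 and 4 shRNF185.3 libraries each. The 27 of 32 is thus not free of the filter's effect. With DESeq2's size factors or with library size alone the median of all genes moved by under 0.03. Members with under 50% of their windows shared gave 3 called of 17, with a median of 0.27. The called genes were Hist1h2be, Hist1h1d, Hist4h4 and Hist1h2ai. The last 2 passed the low-count filter only through groups where they are high, so their calls are no support. At an unadjusted p under 0.05 the count was 5. The count fell to 2 without shRNF185.3 library 3, without batch 2, without batch 3 and with no filter beyond 1 count.

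Hist1h2be, an H2B gene at chr13:23583670-23621124, held 0.816, 0.917 and 0.997 CPM in the control group (lowest, median, highest). With shRNF185.3 it held 1.08, 1.29 and 1.74, all 6 libraries above the highest control. Its log2 fold change was 0.53 (SE 0.14, adjusted p = 0.0083 by edgeR), with within-batch log2 ratios of 0.44, 0.44 and 0.70. With shRNF185.1, 5 of 6 libraries were above the highest control and 1 below the lowest, and the fold change was 0.24 (SE 0.14, adjusted p = 0.26 by edgeR). The annotated gene overlaps Hist1h1e on the same strand over 496 exonic bases. Its call was lost without batch 2 or without batch 3.

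Hist1h1d encodes linker histone H1.3. Its control levels were 0.348, 0.567 and 0.702 CPM, and with shRNF185.3 they were 0.756, 0.898 and 1.16, again with no overlap. The log2 fold change was 0.71 (SE 0.22, adjusted p = 0.0228 by edgeR), and the within-batch ratios were 0.66, 0.73 and 0.72. With shRNF185.1 the levels ran from 0.532 to 1.24 CPM, 2 of 6 above the highest control, and the change was 0.42 (SE 0.23, adjusted p = 0.18 by edgeR). Of the 28 alternatives, 22 kept the call with shRNF185.3; it was lost without any 1 of the batches, with no filter, without control library 2 and without shRNF185.3 library 3, at an adjusted p of up to 0.10.

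Hist4h4 is the single H4 gene of the Hist4 cluster, at chr6:136801553-136804415. The control group held 0.207, 0.274 and 0.471 CPM, the shRNF185.1 group 0.116, 0.218 and 0.491, and the shRNF185.3 group 0.424, 0.539 and 0.623. With shRNF185.3, 5 of 6 libraries were above the highest control. The log2 fold change against control was 0.75 (SE 0.26, adjusted p = 0.0409 by edgeR), with within-batch ratios of 1.10, 0.92 and 0.36. The gene had 10 counts or more in 2 control, 1 shRNF185.1 and 6 shRNF185.3 libraries, and so passed the filter only through the group where it is high. It was called in 13 of 28 alternatives, with adjusted p from 0.0195 to 0.31. Leaving out control library 1, 2, 3 or 5 or any of shRNF185.3 libraries 1 to 5 ended the call, at an adjusted p of up to 0.082. It was also lost with batch as a covariate (adjusted p = 0.066 by edgeR), with no filter, with the DESeq2 Wald test (adjusted p = 0.072), without batch 1 and without batch 2. It rests on 3 to 18 counts per library.

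**Figure D3:**
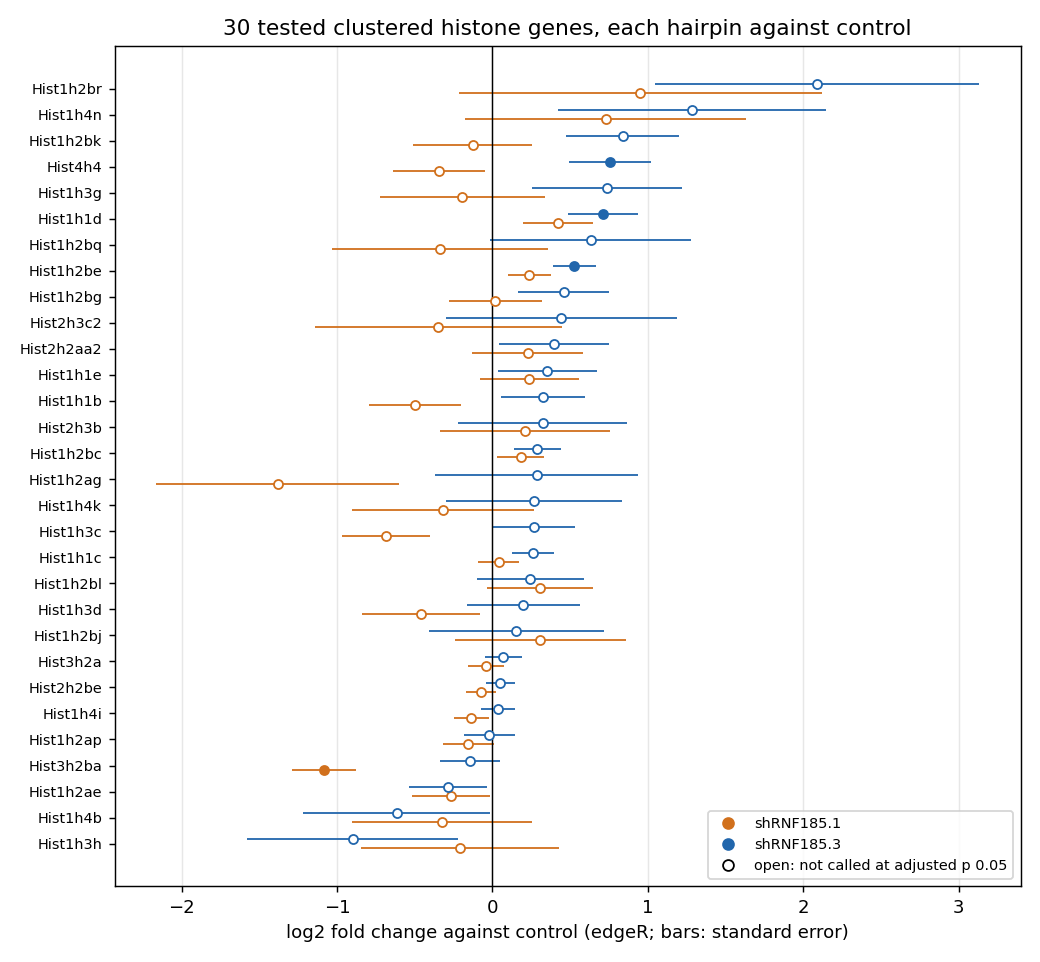
Log2 fold change against control with its standard error for 30 of the 32 tested members, filled where called at an adjusted p under 0.05; Hist1h2ai and Hist1h2ao, with most control libraries at 0, are left out. Most shRNF185.3 points lie right of 0, and 3 of them are called, while 1 shRNF185.1 point (Hist3h2ba) is called.

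Between the hairpins, 3 of 32 members were called, all higher with shRNF185.3 (9.375%), against 14.7% of all genes, 7.72% higher and 6.94% lower. Hist3h2ba differed by 0.94 on the log2 scale (SE 0.21, adjusted p = 0.00398 by edgeR), with within-batch differences of 0.96, 0.84 and 0.99. Hist4h4 differed by 1.10 (SE 0.28, adjusted p = 0.0113 by edgeR), with 1.42, 1.33 and 0.60 within batches, and the limit from the filter holds here too. For Hist1h3c, an H3 gene at chr13:23744973-23745602, the shRNF185.1 libraries held 0.248, 0.412 and 0.737 CPM and the shRNF185.3 libraries 0.445, 0.794 and 1.19. These ranges overlapped. The difference was 0.95 (SE 0.28, adjusted p = 0.0292 by edgeR), 0.73, 0.69 and 1.40 within batches, and it was called in 18 of 28 alternatives. Leaving out shRNF185.1 library 2, 3 or 5 or shRNF185.3 library 2 or 6 ended that call, at an adjusted p of up to 0.080. It was also lost with batch as a covariate (adjusted p = 0.051 by edgeR), with no filter and without any 1 of the batches. Without batch 1 no member was called between the hairpins, without batch 2 the call of Hist4h4 was also lost, and without shRNF185.1 library 4 the count was 5.

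For the mean of both hairpins against control, 4 of 32 members were called, 3 higher and 1 lower, against 32.9% of all genes. They were Hist3h2ba (-0.61), Hist1h2be (0.38), Hist1h1d (0.57) and Hist1h2ai (0 counts in the control group). Of 28 alternatives, 26 kept the call of Hist3h2ba, 22 that of Hist1h2be and 16 that of Hist1h1d. Without batch 2 or without batch 3 the count was 2.

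**Figure D4:**
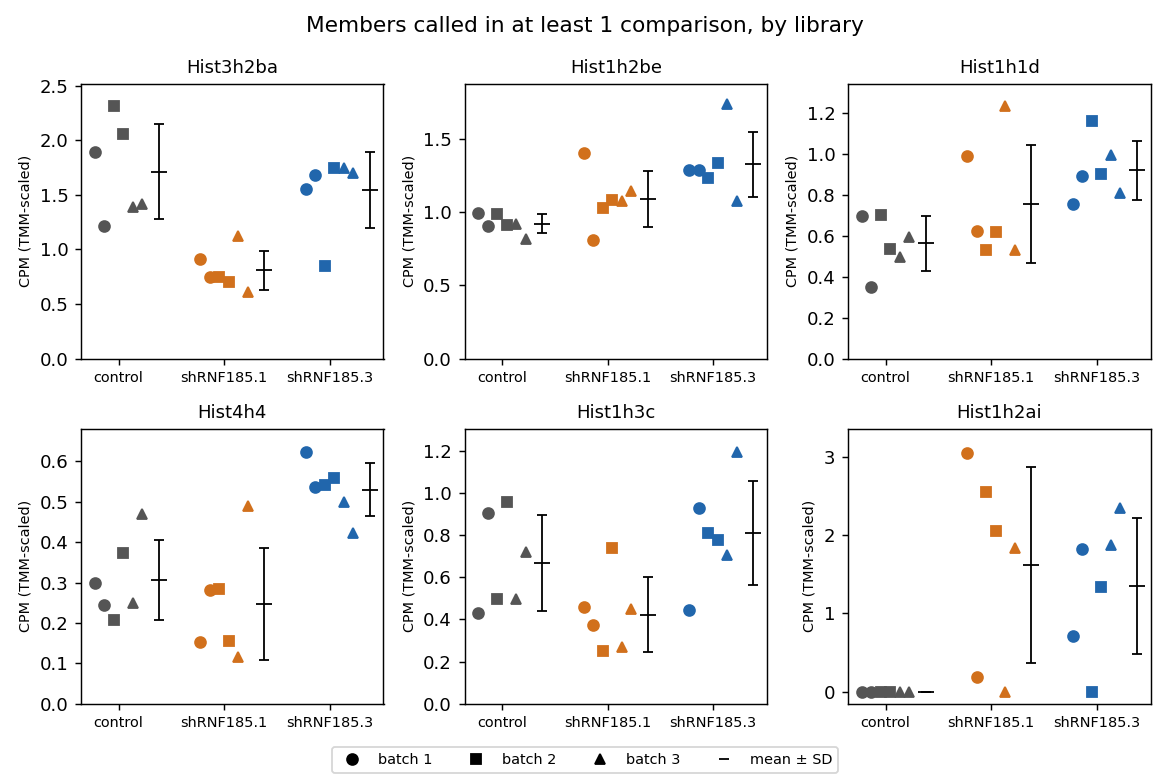
TMM-scaled CPM of the 6 members called in at least 1 comparison, 1 point per library, shaped by batch, with the mean and SD (n = 6) beside each group. Hist3h2ba is low in all 6 shRNF185.1 libraries, Hist1h2be and Hist1h1d are above every control library with shRNF185.3, and Hist1h2ai is at 0 in all 6 control libraries.

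Of the 10 members with the highest mean CPM, Hist3h2ba alone was called, with shRNF185.1. The H2A copies Hist1h2ap and Hist1h2ao, also not called, are described separately. Hist1h1c held 38.1, 51.7 and 58.5 CPM in control libraries, 42.1, 46.6 and 72.3 under shRNF185.1 and 48.3, 62.9 and 67.6 under shRNF185.3. With shRNF185.3, 4 of 6 libraries were above the highest control, but the groups overlapped and the log2 fold change of 0.26 (SE 0.13) had an adjusted p of 0.16 by edgeR. Hist1h2bc held 13.5, 18.5 and 21.2 CPM in control libraries, 15.2, 18.4 and 28.0 under shRNF185.1 and 17.8, 22.8 and 24.4 under shRNF185.3. Its changes of 0.18 and 0.29 (SE 0.15 each) were also not called. Within batches the ratios of these genes with shRNF185.1 changed sign, from -0.31 to 0.46 for Hist1h1c and from -0.40 to 0.64 for Hist1h2bc. Hist1h4i (7.77, 9.52 and 10.3 CPM in the control group), Hist3h2a (4.94, 5.40 and 6.82) and Hist2h2be (3.83, 4.44 and 5.26) moved by -0.14 to 0.07 on the log2 scale (SE 0.10 to 0.12) and were not called. Hist3h2a overlaps Trim17 on the same strand over 708 exonic bases. Hist2h2aa2 (1.13, 2.85 and 4.22 CPM in control libraries) and Hist1h2bg (0.604, 1.61 and 1.86) spread more widely, with changes of 0.02 to 0.46 (SE 0.29 to 0.35), and were not called either.

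The H2A copies need to be read together. Hist1h2ap held 160, 229 and 276 CPM in control libraries, 148, 203 and 256 under shRNF185.1 and 162, 222 and 271 under shRNF185.3. The groups overlapped, with log2 fold changes of -0.16 and -0.02 (SE 0.16 each). Hist1h2ai had 0 counts in all 6 control libraries and up to 3.05 CPM with shRNF185.1 and 2.35 with shRNF185.3, with 5 of 6 libraries of each hairpin above 0. Against a limit of 3 counts over the control group (counting error only), its assigned level was 97.5-fold higher with shRNF185.1 and 84.4-fold higher with shRNF185.3. That limit does not cover how shared reads were divided, and 89.3% of the gene's windows are shared. These folds are therefore no lower limit on its expression. Hist1h2ai passed the low-count filter only through the hairpin groups, so it had to differ and no p is given.

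Hist1h2ao, whose windows are nearly those of Hist1h2ap, was at 0 in 5 of 6 control libraries and at 1.95 CPM in library 2. It reached 23.0 CPM in shRNF185.1 library 6 and 24.0 in shRNF185.3 library 3. Of Hist1h2ai, the former library had 45 counts and the latter 0, and shRNF185.1 library 5 had 0 counts of Hist1h2ai with 0.0023 CPM of Hist1h2ao. The log2 fold changes of Hist1h2ao, 3.81 and 3.70 (SE 1.81 each), were not called and rest on single libraries. Without control library 2 they were 9.95 and 9.84, and without shRNF185.3 library 3 they were 3.81 (adjusted p = 0.0495 by edgeR) and -1.96. The 10 Hist1 H2A genes with over 50% of windows shared summed to 225 ± 53.2 CPM in control libraries (SD, n = 6 in each group), 207 ± 45.8 under shRNF185.1 and 226 ± 41.1 under shRNF185.3. The part that the division of shared reads plays in the Hist1h2ai result was not tested.

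Summed over each class, each hairpin group overlapped the control group. All 68 members together held 333 ± 52.7 CPM in control libraries (SD, n = 6 in each group), 316 ± 36.8 under shRNF185.1 and 353 ± 35.5 under shRNF185.3. In the same order, H1 genes summed to 51.8 ± 7.36, 53.4 ± 12.5 and 62.3 ± 7.90 CPM, and H2B genes to 29.9 ± 4.49, 31.2 ± 7.08 and 36.3 ± 3.78. H3 genes summed to 3.99 ± 0.837, 3.11 ± 0.397 and 4.58 ± 0.877, with no overlap between the hairpins (2.52 to 3.45 under shRNF185.1 and 3.65 to 6.17 under shRNF185.3). H4 genes summed to 13.3 ± 1.35, 11.1 ± 1.13 and 13.5 ± 1.19. Within batches the log2 ratio of all members to control ran from -0.28 to 0.21 for shRNF185.1 and from -0.02 to 0.23 for shRNF185.3. Leaving out members with over 50% of windows shared took the sum of all members to 99.0, 99.8 and 116 CPM.

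For Hist1h2ap, the spread inside a group followed the library number. In all 9 pairs of libraries that share a group and a batch, the even-numbered library had more Hist1h2ap than the odd-numbered one, by 1.13 to 1.63 times (median 1.49). Of the 14309 genes tested, 5.06% were higher in the even library of all 9 pairs and 5.36% in the odd one. Counted by median ratio alone, 168 genes (1.17%) were at or above Hist1h2ap. Of the 32 members tested, Hist1h2ap alone was even-higher in all 9 pairs, and Hist2h2aa2 alone was odd-higher in all 9, at a median ratio of 0.479. Hist2h2be and Hist1h2bg were even-higher in 4 of 9 pairs and Hist3h2ba in 3. Hist1h1c was higher in the even library of 2 of 9 pairs and Hist1h2bc of 1 of 9, at median ratios of 0.807 and 0.783. The variant gene H2afx, the replication clamp gene Pcna and the linker variant H1f0 were even-higher in 9 of 9, at 1.17, 1.14 and 1.07 times. What the numbers stand for is not given in the sources used here, and this split was looked at after the values were seen.

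**Figure D5:**
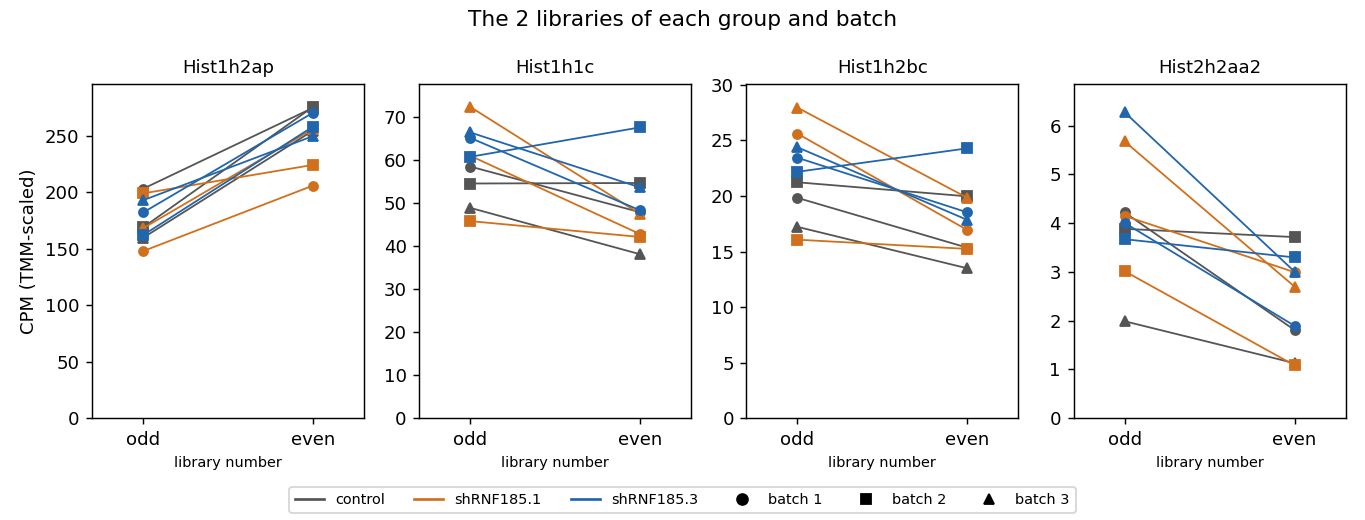
CPM of 4 members in the odd-numbered and even-numbered library of each of the 9 combinations of group (colour) and batch (marker), joined by lines. All 9 lines rise for Hist1h2ap and all 9 fall for Hist2h2aa2, while 7 of 9 fall for Hist1h1c and 8 of 9 for Hist1h2bc.

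The genes listed as replication-independent variants lie outside the clusters. Most of their messages are polyadenylated, although H2afx has both kinds of end. Their mean levels per kilobase ran from 11.99 CPM (H2afy2) to 276 (H3f3b), beside 445 for Hist1h2ap. All 11 were tested: 5 were called with shRNF185.1 (1 higher, 4 lower) and 3 with shRNF185.3 (1 higher, 2 lower). These are 45.5% and 27.3%, beside 28.9% and 27.3% of all genes. H3f3b, which encodes H3.3, fell with both hairpins: 856, 890 and 969 CPM in control libraries, 712, 745 and 831 under shRNF185.1 and 755, 818 and 838 under shRNF185.3, all below the lowest control. Its log2 fold changes were -0.24 (SE 0.05, adjusted p = 0.000834 by edgeR) and -0.15 (SE 0.05, adjusted p = 0.0229 by edgeR). H1fx, the linker variant H1.10, rose by 0.28 (SE 0.10) and 0.33 (SE 0.10), although its groups overlapped.

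Among the other variants, H2afj fell with shRNF185.1 by 0.45 on the log2 scale (SE 0.08), all 6 libraries below the lowest control, and its change of -0.21 with shRNF185.3 was not called (adjusted p = 0.057 by edgeR). H2afy, which encodes macroH2A1, fell by 0.26 (SE 0.05) with shRNF185.3, with no overlap, and held -0.03 with shRNF185.1. The difference between hairpins was called for H2afy (adjusted p = 0.00252 by edgeR) and not for H2afj (0.056). H2afz (H2A.Z) and Cenpa (the centromeric H3) fell with shRNF185.1 by 0.29 and 0.22. H1f0, H2afv, H2afx, H2afy2 and H3f3a were not called, with changes of -0.13 to 0.34.

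A list of genes for the 3′ ends and decay of histone messages was lowered more than raised. It also holds shared or canonical cleavage and polyadenylation factors, which act on other messages too. Of 45 tested, 15 were called with shRNF185.1 (2 higher, 13 lower) and 13 with shRNF185.3 (all lower), which is 33.3% and 28.9% against the 28.9% and 27.3% of all genes, so the share called was near the background. Their median log2 fold changes were -0.09 and -0.08. Slbp, whose protein binds the stem-loop, held 99.4, 123 and 131 CPM in control libraries, 84.5, 100 and 107 under shRNF185.1 and 87.1, 102 and 115 under shRNF185.3. It fell with shRNF185.1 by 0.29 (SE 0.08, adjusted p = 0.0079 by edgeR). With shRNF185.3 its change of -0.20 (SE 0.08) had an adjusted p of 0.064 by edgeR.

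Among genes of that list that fell with both hairpins, the 3 with the largest changes were Mif4gd, Lsm11 and Ncbp1. Mif4gd, an SLBP-interacting translation factor, fell by 0.41 and 0.39 (SE 0.09 each), Lsm11, a subunit of the U7 particle, by 0.27 and 0.24 (SE 0.07 each), and the cap-binding gene Ncbp1 by 0.24 and 0.30 (SE 0.07 each). The 2 comparisons share their control libraries.

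Few histone gene regulators, chaperones and S-phase genes were called, in comparisons where 28.9% and 27.3% of all genes were; the difference in share was not tested. Of 26 genes of histone transcription and chaperones, 3 were called with shRNF185.1 (11.5%) and 4 with shRNF185.3 (15.4%). Ccne2, a cyclin E that drives entry into S phase, fell by 1.22 (SE 0.14) and 0.47 (SE 0.14), and Hinfp, the factor that binds H4 promoters, by 0.25 and 0.16 (SE 0.06 each). Of 29 S-phase genes, 4 fell with shRNF185.1 (13.8%), 5 with shRNF185.3 (17.2%) and none rose. Ccna2 (cyclin A2) held 300, 324 and 385 CPM in control libraries, 166, 205 and 225 under shRNF185.1 and 247, 290 and 303 under shRNF185.3. It fell by 0.72 (SE 0.07) and 0.21 (SE 0.07), and the hairpins differed by 0.51 (SE 0.07, adjusted p = 5.92e-05 by edgeR). Gmnn, the licensing inhibitor geminin, fell by 0.39 and 0.24 (SE 0.08 each), and Rfc4, a clamp loader subunit, by 0.26 and 0.24 (SE 0.08 each).

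With 1 batch left out, H3f3b, H2afj, Ccne2, Ccna2 and Gmnn kept their calls with shRNF185.1, and H2afy kept its call with shRNF185.3. Each other call of a gene named from the lists of variants, end processing, regulators and S-phase genes was lost without at least 1 of the batches, at the same direction. Leaving out single libraries ended the calls with shRNF185.3 of Hinfp (10 of the 18 libraries), Gmnn (8), Ccna2 (7), Rfc4 (4), H1fx (4) and H3f3b (3), and those with shRNF185.1 of H1fx (8), Cenpa (4) and H2afz (1), with a highest adjusted p per gene of 0.0512 to 0.105 by edgeR.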

How the data were processed

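Per the labels' protocols, poly(A) RNA was selected and directional single-end libraries were sequenced. The submitters' processing notes name cutadapt 2.3, STAR 2.7.0d, RSEM 1.3.1 and mm10; the annotation is not given in the sources used here. The authors deposited estimated counts and CPM, both labelled ComBat-Seq; whether the adjustment knew the groups is not stated. The deposited counts are not all whole (0.466% of values) and were rounded for the tests, which had been planned for whole counts. The deposited CPM are a library-scaled signal (counts over TMM-effective library sizes). Library totals ran from 22027395 to 43379662.

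Genes were filtered with filterByExpr (minimum count 10; 14309 kept), scaled by TMM and tested with edgeR 4.0.16 (R 4.3.3), quasi-likelihood F test, a mean per group over all 18 libraries, Benjamini-Hochberg over all genes, called at 0.05. DESeq2 1.42.0, other scalings, no filter, covariates and left-out libraries or batches were alternatives. The fit was tested on simulated data. Named genes were the 10 most abundant members, the highest of each class, up to 4 members called per direction and comparison, up to 3 per direction and list called with both hairpins, Slbp, Rnf185 and the variants. Members and lists were chosen with earlier results of these data known. Sequences and coordinates came from GENCODE M21 transcripts (GRCm38) and RefSeq promoters. Some cell type markers are not reported here.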

Additional observations from a re-analysis of the deposited data

Results flagged for a closer look

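Single libraries stood apart from the other 5 of their group in 6 of 63 sets of 6 values examined, where chance gives about 3.15 (1 in 20). The sum of all members was 386 CPM in shRNF185.1 library 6, high for its group. Hist3h2a was low in shRNF185.3 library 2 (4.47 CPM), and Hist3h2ba was low in shRNF185.3 library 3 (0.850 CPM). Hist1h2ao was high in control library 2 (1.95 CPM), in shRNF185.1 library 6 (23.0 CPM) and in shRNF185.3 library 3 (24.0 CPM).

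The effects of the hairpins differed, by the test of hairpin against hairpin, for Hist3h2ba (0.94 on the log2 scale), Hist1h3c (0.95) and Hist4h4 (1.10), each higher with shRNF185.3.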

How the results depend on the processing

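The number of members called moved when batches or single libraries were left out, which leaves fewer libraries, and without the filter. It was 4 (2 in the reported fit) with shRNF185.1 without batch 2, and 2 (from 4) with shRNF185.3 with no filter beyond 1 count, without batch 2 and without batch 3. Between hairpins it was 0 (from 3) without batch 1, and for the mean of both hairpins 2 (from 4) without batch 2 and without batch 3. Without single libraries the counts ranged from 2 to 4 with shRNF185.1, from 2 to 5 with shRNF185.3, from 2 to 5 between hairpins and from 3 to 5 for the mean of both. Adding the replicate number as a block gave 2, 3, 3 and 3, ended the call of Hist4h4 with shRNF185.3 and that of Hist1h1d for the mean of both, and turned Hist1h2bg with shRNF185.1 to -0.0081 on the log2 scale. The numbers were not used to pair the samples in the reported fit. Same-numbered libraries deviated together with r over 0.1 in 4 of 18 pairs, and 2 of 18 libraries correlated best with their own number. That check cannot exclude pairing, because the counts were already adjusted for batch and batch follows the number. An odd or even number as a covariate, added after the data were seen, gave 3, 4, 4 and 4, and -0.0028 for Hist1h2bg with shRNF185.1.

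Reversed directions, with the cause not tested, were all in genes not called in that comparison. With shRNF185.1 the log2 fold change became 0.017 for Hist1h4i without batch 1. Without batch 2 it became 0.16 for Hist3h2a, 0.053 for H1f0 and -0.022 for H2afx. Without batch 3 it became -0.17 for Hist1h1c, -0.050 for Hist1h2bc, -0.28 for Hist2h2aa2, -0.49 for Hist1h2bg and -0.036 for H2afx. With shRNF185.3 it became 0.0076 for Hist1h2ap without batch 1. Without batch 2 it became 0.0020 for Hist1h2ap, -0.078 for Hist1h4i, -0.011 for Hist2h2be, -2.20 for Hist1h2ao and 0.18 for Hist3h2ba. Without batch 3 it became -0.018 for Hist3h2a, -0.087 for Hist2h2aa2, 0.067 for H2afz and 0.023 for Cenpa.

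Without single libraries, signs turned within these ranges for shRNF185.1: -0.077 to 0.099 for Hist1h1c, -0.11 to 0.033 for Hist3h2a, -0.00058 to 0.41 for Hist2h2aa2, -0.22 to 0.12 for Hist1h2bg and -0.054 to 0.058 for H2afx. For shRNF185.3 they were -0.10 to 0.052 for Hist1h2ap, -0.012 to 0.11 for Hist1h4i and -1.96 to 9.84 for Hist1h2ao.

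Leaving out members with over 50% of windows shared moved summed levels in control, shRNF185.1 and shRNF185.3 libraries to 99.0, 99.8 and 116 CPM for all members, 6.76, 6.58 and 7.004 for H2A and 1.88, 1.29 and 2.55 for H3. It gave 32.0 for H2B with shRNF185.3, and 11.6 and 11.95 for H4 in control and shRNF185.3 libraries. With no filter beyond 1 count, 66 members were tested and 3, 2, 4 and 3 were called in the 4 comparisons; 40 of the 68 have a mean count under 10, which limits precision.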
